A study of Mus musculus with 8 samples.

Results

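The genes described here are 59 protein-coding genes of mitosis and cytokinesis, chosen by name for their roles and not by a threshold on their values. They cover mitotic entry, mitotic kinases, chromosome structure, the kinetochore, the spindle checkpoint, anaphase, the chromosomal passenger complex, spindle motors, and the midzone and cytokinesis, 9 roles in all. In each library a gene took the value of the deposited locus that overlapped its annotated position best (Jaccard index, shared over combined length, of 0.5 or more). Of the 59 genes, 58 were found in all 8 libraries, among 20197 genes found this way, and all 58 were tested, among 10284 genes with an FPKM of 1 or more in at least 2 libraries. Among the 58, 57 reached an FPKM of 1 in every library. Cit, which encodes the citron kinase of the contractile ring, did so only in the 2 libraries labelled Esrrb+Hh-CM, so it entered the test through the group in which it was high. Ccnb2, the cyclin B2 partner of Cdk1, was not tested, because in 1 library its locus was reported together with a longer stretch of the chromosome.

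At the entry into mitosis the kinase Cdk1, bound to cyclins, is released from inhibition by Cdc25 phosphatases. Condensins and topoisomerase then compact and untangle the chromosomes, kinetochores attach them to spindle microtubules, and the spindle checkpoint holds back the anaphase-promoting complex (APC/C) until attachment is complete. Destruction of securin and cyclin B allows separase to part the sister chromatids, after which the midzone and contractile ring divide the cell. In cycling fibroblasts many of these mRNAs are made in the G2 and M phases and are scarce in arrested cells, and their promoters often carry CCAAT boxes and a cell-cycle genes homology region (CHR).

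The libraries came from NIH3T3, a line of mouse embryonic fibroblasts that responds to Hedgehog (Hh) ligand, and the study asked whether the nuclear receptor Esrrb (estrogen related receptor beta) alters the response of Hh targets. All cells carried a stably selected pcDNA3.1 vector with zeocin resistance (selection at 150 µg/ml). Control and Hh-CM cells carried the empty vector, and cells labelled Esrrb and Esrrb+Hh-CM carried the Esrrb expression vector, with established cells of separate transfections pooled in each case. After reaching confluence, Hh-CM and Esrrb+Hh-CM cells received medium conditioned by HEK293 cells that carry an N-terminal Sonic Hedgehog transgene, diluted 100-fold (1%), for 48 h in 5% newborn calf serum, while Control and Esrrb cells received medium of HEK293 cells without the transgene at an equal dilution. Each of the 4 groups had 2 libraries. The labels do not say whether the 2 libraries of a group came from different transfections, so the p-values measure the spread between these libraries only, and 2 cultures of pooled cells per group limit how far a difference can be assigned to the vector rather than to the line that carries it.

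The deposited values did not show the Esrrb vector. Esrrb mRNA at the mouse locus was listed at 0 FPKM in both libraries labelled Esrrb, in both labelled Esrrb+Hh-CM and in both Control libraries, and at 0.0281 and 0.0203 FPKM in the 2 Hh-CM libraries. The sources used here do not give the sequence of the vector's Esrrb insert, and whether its transcripts would be counted at this locus was not tested. Esrrb protein, which the study assayed by immunoblot, is not measured in these files. The directions given below for the libraries labelled Esrrb and Esrrb+Hh-CM therefore follow the labels. The Hh-CM label was matched by Gli1. This gene, which encodes a transcription factor and is a direct Hh target, measured 0.0217 and 0.0308 FPKM in Control, 26.8 and 28.1 in Hh-CM, 0.106 and 0.0372 in the libraries labelled Esrrb and 34.5 and 34.8 in those labelled Esrrb+Hh-CM. Fibroblast markers were abundant, with 8 of 10 tested and a summed level between 7572 and 8642 FPKM in every library. The 6 epithelial markers summed to at most 0.147 FPKM, the 6 immune markers to between 0.999 and 2.83 FPKM, and the 4 endothelial markers to between 0.0812 and 0.143 FPKM without Hh-CM and between 1.19 and 1.67 FPKM with it, with Kdr at 0 in all 8 libraries. The endothelial sum was higher with Hh-CM, as the members were. Only 1 of the 4 endothelial markers was abundant enough to be tested. On the log2 scale that marker stood 2.73 higher in Hh-CM than in Control. The sum therefore does not show a rise shared by the endothelial list. The sum was not higher in the libraries labelled Esrrb (0.0812 and 0.088 FPKM) than in Control (0.111 and 0.143). Between Hh-CM (1.19 and 1.42 FPKM) and those labelled Esrrb+Hh-CM (1.23 and 1.67) it overlapped. The part of endothelial markers in the members' values was not tested. Sequencing depth, read from the width of the authors' confidence intervals over 3399 genes and set to 1 in the first Control library, lay between 0.761 in the second library labelled Esrrb+Hh-CM and 1.45 in the second Hh-CM library.

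The promoters are shown first as a description of sequence, and their part in the differences that follow was not tested. RefSeq promoters (GRCm38.p6, 250 bases before to 50 after the start site) were found for 49 of the 59 members, 51 promoters in all. The CHR letters TTTGAA, searched on both strands, stood in 36 of these 51 promoters (70.6%), against 17.9% of all 32851 promoters of the same length. The CCAAT letters, also on both strands, stood in 38 of 51 (74.5%), against 37.4% of all promoters, and both motifs together stood in 31 (60.8%), against 6.95%. TATAAA was rarer among the members than among all promoters (1.96% against 13.6%). The promoters of 4 members of different roles are printed below; each member had a difference between the vector lines described further on, and the set shows promoters with 2, 1 and 0 matches to TTTGAA. Each runs 5′ to 3′ along the gene's own strand, with capitals marking TTTGAA or CCAAT on either strand (TTCAAA and ATTGG on the other).
Top2a (chr11:99024140-99024439, minus strand): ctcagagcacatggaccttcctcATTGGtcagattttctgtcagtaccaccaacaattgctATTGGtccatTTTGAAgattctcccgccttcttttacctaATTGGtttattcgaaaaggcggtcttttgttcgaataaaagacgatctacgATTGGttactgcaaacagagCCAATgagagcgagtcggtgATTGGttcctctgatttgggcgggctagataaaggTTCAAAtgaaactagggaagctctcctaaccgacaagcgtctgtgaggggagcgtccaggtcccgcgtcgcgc
Plk1 (chr7:122159185-122159484, plus strand): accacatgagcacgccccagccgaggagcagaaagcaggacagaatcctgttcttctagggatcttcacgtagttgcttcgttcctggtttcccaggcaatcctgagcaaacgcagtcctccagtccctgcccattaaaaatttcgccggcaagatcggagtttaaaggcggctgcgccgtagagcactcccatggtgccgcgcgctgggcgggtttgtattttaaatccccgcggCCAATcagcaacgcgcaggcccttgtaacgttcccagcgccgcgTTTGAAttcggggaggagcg
Ube2c (chr2:164769679-164769978, plus strand): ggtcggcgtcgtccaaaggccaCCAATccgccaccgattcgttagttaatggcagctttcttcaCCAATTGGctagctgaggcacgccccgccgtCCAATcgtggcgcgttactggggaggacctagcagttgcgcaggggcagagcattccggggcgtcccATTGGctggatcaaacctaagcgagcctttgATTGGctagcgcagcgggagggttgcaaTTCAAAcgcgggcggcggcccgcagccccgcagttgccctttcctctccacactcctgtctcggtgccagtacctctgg
Ccnb1 (chr13:100786437-100786736, minus strand): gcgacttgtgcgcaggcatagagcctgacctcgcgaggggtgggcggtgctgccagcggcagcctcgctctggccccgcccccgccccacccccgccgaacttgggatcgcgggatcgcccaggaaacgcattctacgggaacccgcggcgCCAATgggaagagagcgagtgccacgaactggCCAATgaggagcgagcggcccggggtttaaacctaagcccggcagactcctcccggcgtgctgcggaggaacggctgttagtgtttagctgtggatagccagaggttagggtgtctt
The Top2a promoter held 2 CHR matches, at -179 and -23 bases from the start site, and 6 CCAAT matches. Plk1 held 1 CHR match at 30 bases after the start and 1 CCAAT match at -14. Ube2c held 1 CHR match at -29 and 6 CCAAT matches, of which 2 overlap as CCAATTGG on opposite strands. Ccnb1 held no CHR match in this window and 2 CCAAT matches, at -99 and -67.

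**Figure D1:**
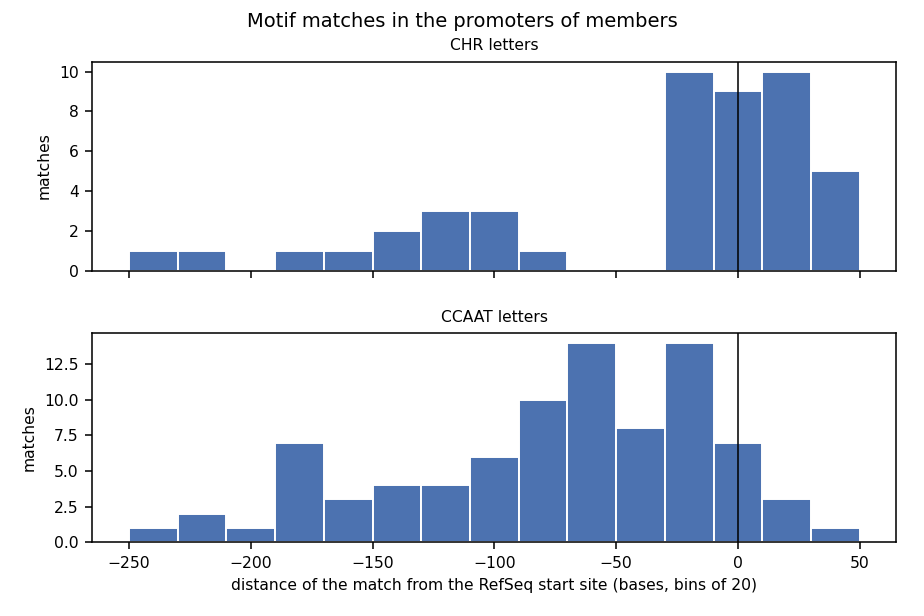
Matches to the CHR letters (top) and the CCAAT letters (bottom) in the 51 promoters of members, counted in bins of 20 bases (y axis, number of matches) by distance from the RefSeq start site (x axis, bases). The 47 CHR matches gather around the start site with a median of -5 bases, and the 85 CCAAT matches lie further upstream with a median of -62 bases.

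A match to these letters is a description of the sequence, not a measured binding site. In the same search 35.3% of 68 promoters of other mitotic genes and 17.5% of 40 promoters of DNA replication genes held TTTGAA. The E2F letters TTTGGCGC or TTTCGCGC stood in 7.84% of member promoters, 27.5% of replication gene promoters and 0.813% of all promoters. Within the list, the size of the difference between libraries labelled Esrrb+Hh-CM and Control was close with and without the CHR letters: the median log2 fold change was 1.864 in 33 tested members with them and 1.805 in 15 without them.

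The summed level of the 58 members was 389 ± 7.07 FPKM (SD, n = 2) in Control, 472 ± 3.30 in the libraries labelled Esrrb, 729 ± 12.5 in Hh-CM and 1345 ± 44.6 in those labelled Esrrb+Hh-CM. Relative to Control these sums were 1.21-, 1.87- and 3.46-fold. In a bulk library a larger share of dividing cells and more mRNA per cell cannot be told apart. The group means stood in the order Control, Esrrb, Hh-CM, Esrrb+Hh-CM in 53 of 58 members (91.4%), against 11.5% of all tested genes, and the exceptions were Cdc25b, Cit, Kif4, Melk and Spc24. In 45 members (77.6%, against 3.58% of all tested genes) every single library kept that order. Both libraries labelled Esrrb+Hh-CM lay above the other 6 in all 58 members, against 18.9% of all tested genes. Cit had to show this, since it entered the test through these libraries, and the other 57 did not.

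**Figure D2:**
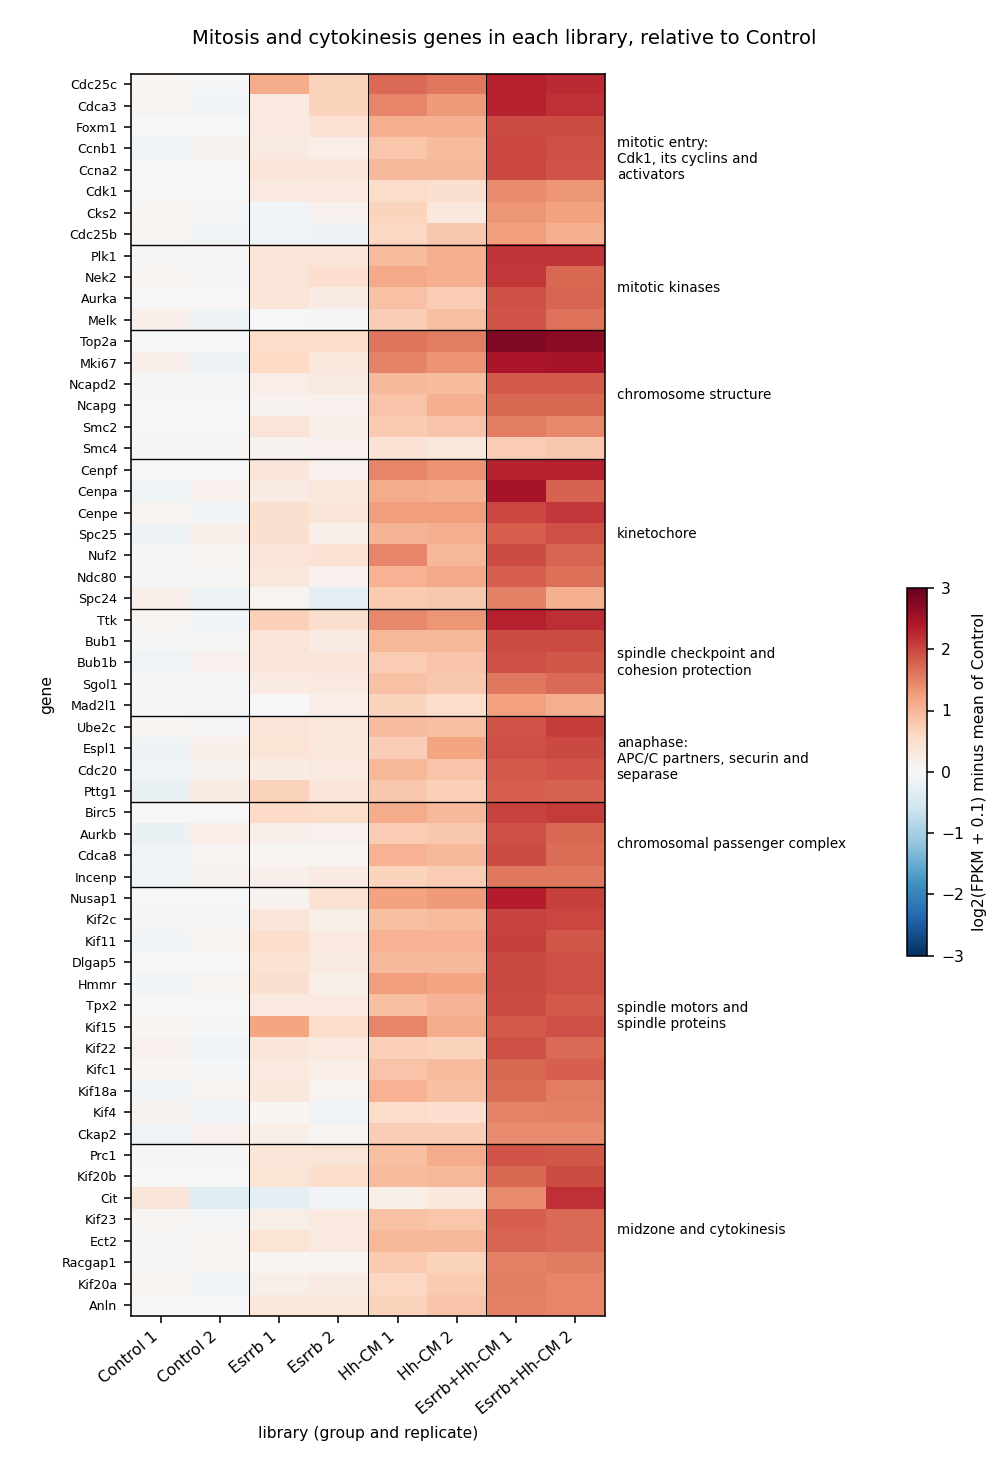
Level of the 58 tested members (rows, grouped by role) in each of the 8 libraries (columns), as log2(FPKM + 0.1) minus the mean of the 2 Control libraries, from blue (lower) to red (higher) on a scale of -3 to 3. The columns labelled Esrrb+Hh-CM are the reddest in every row, the Hh-CM columns come next by their mean, and the columns labelled Esrrb lie closest to Control.

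All tests are those of limma, run on log2(FPKM + 0.1) over the 8 libraries with Benjamini-Hochberg adjustment over all 10284 genes, and fold changes are on that scale, which understates those of low genes. A member is said to have risen where the adjusted p was below 0.05, and to have passed both thresholds where the log2 fold change was also at least 1. With 2 libraries a group, an exact permutation test of a single value cannot give a two-sided p below 0.33, so no such test is given.

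With Hh-CM in the empty-vector cells, which asks what the ligand does without the Esrrb vector, 55 of 58 members rose and 21 passed both thresholds, against 10.5% and 1.96% of all tested genes in that direction. The median log2 fold change was 0.96, against 0.04 over all tested genes, and no member fell, against 7.53% of all tested genes. The Hh-CM and Control libraries did not overlap in 57 members, against 37.1% of all tested genes, with Cit the exception. Cks2, Spc24 and Cit did not pass the adjusted p. The count past both thresholds rests on values close to a log2 fold change of 1, and it was 14 without the first Control library and 9 with a pseudocount of 1.

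Between libraries labelled Esrrb and Control, both with vehicle medium, 18 of 58 members rose and 0 passed both thresholds by limma, against 10.2% and 0.836% of all tested genes. None fell past the adjusted p by limma, or at an unadjusted p below 0.05, against 6.16% of all tested genes past the adjusted p. Without adjustment, 36 members had p below 0.05 in the upward direction, against 20.8% of all tested genes. The median log2 fold change was 0.30, against 0.05 over all tested genes, and 46 members had both libraries labelled Esrrb above both Control libraries, against 39.5% of all tested genes. Cdc25b was the 1 member with both below. Esrrb mRNA was listed at 0 at its mouse locus in these libraries, where transcripts of the vector may not be counted, so the direction follows the label. The count of 18 was not stable: it fell to 3 and 5 without the first and second Control library, to 6 and 8 without the first and second library labelled Esrrb, to 9 without either Hh-CM library, and to 5 when only these 4 libraries were fitted.

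The libraries labelled Esrrb+Hh-CM differed from Control in every tested member. All 58 rose, 57 passed both thresholds, against 23.0% and 4.6% of all tested genes, and the groups did not overlap in any, against 45.1% without overlap in that direction among all tested genes. The median log2 fold change was 1.84, against 0.08 over all tested genes. Smc4 was the member below the fold limit. None fell, against 12.0% of all tested genes. When genes had to reach an FPKM of 1 in every library, which leaves out Cit, 57 of 57 rose and 56 passed both thresholds. Within the vector line, from the libraries labelled Esrrb to those labelled Esrrb+Hh-CM, all 58 rose and 57 passed both thresholds, against 13.9% and 3.47% of all tested genes, with a median of 1.53, and no member overlapped, against 36.5% of all tested genes. None fell, against 9.51% of all tested genes. Without Cit, under the filter of an FPKM of 1 in every library, 57 of 57 rose and 56 passed both thresholds.

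With Hh-CM present in both, the libraries labelled Esrrb+Hh-CM lay above the Hh-CM libraries in all 58 members without overlap, against 39.6% of all tested genes. Of these members, 56 rose and 15 passed both thresholds, against 12.4% and 1.11% of all tested genes, with a median log2 fold change of 0.88. None fell, against 6.52% of all tested genes. Cit, which entered the test through the libraries labelled Esrrb+Hh-CM, had the largest of these changes. With an FPKM of 1 required in every library, which leaves out Cit, 55 of 57 members rose and 14 passed both thresholds. Kif15 and Spc24 did not pass the adjusted p. The count past both thresholds was 8 without the first library labelled Esrrb+Hh-CM, 9 after rescaling the FPKM values between libraries and 8 with a pseudocount of 1.

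**Figure D3:**
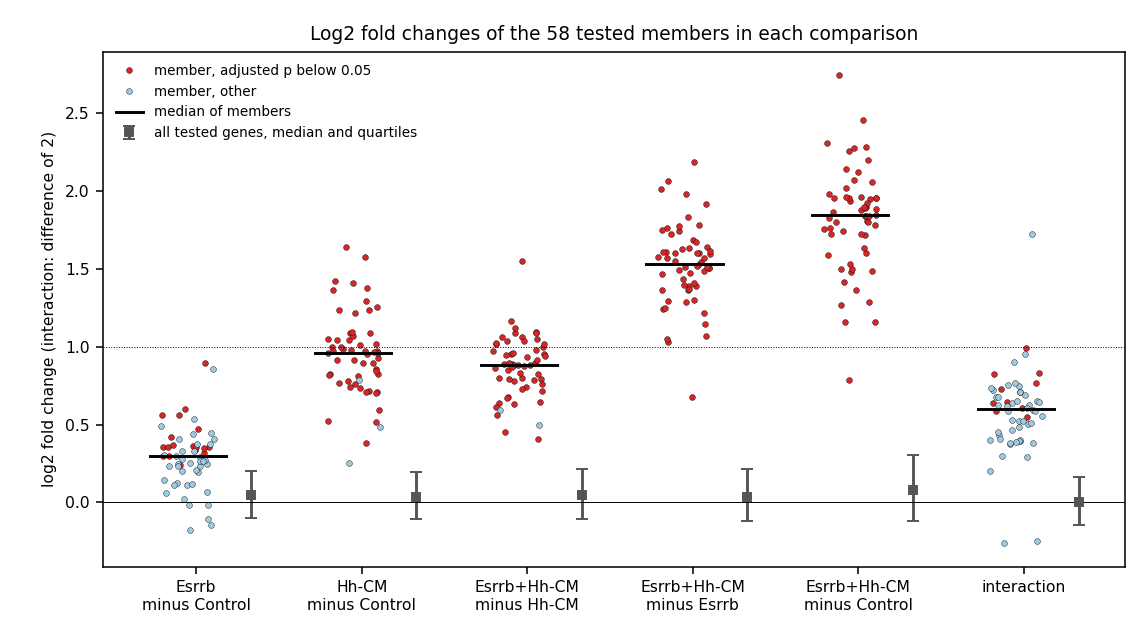
Log2 fold changes on the log2(FPKM + 0.1) scale (y axis) of the 58 tested members (points, red where the adjusted p is below 0.05) in the 5 comparisons and in their difference, the interaction (x axis), with the median of the members as a line and the median and quartiles of all 10284 tested genes as a square with bars. The member medians lie between 0.30, in libraries labelled Esrrb against Control, and 1.84, in those labelled Esrrb+Hh-CM against Control, while those of all genes lie between 0.04 and 0.08 in the 5 comparisons, and the members' median interaction is 0.60.

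Mitotic entry was represented by 8 tested members. Cdk1, the kinase itself (chr10:68799383-68815686, minus strand, mm9), measured 13.8 and 13.9 FPKM in Control, 20.3 and 19.6 in Hh-CM, 17.1 and 17.1 in the libraries labelled Esrrb and 37.1 and 34.9 in those labelled Esrrb+Hh-CM. Cyclin B1, Ccnb1 (chr13:101548605-101556525, minus strand), which forms the active mitotic kinase with Cdk1, measured 7.54 and 8.69 FPKM in Control and 14.5 and 15.8 in Hh-CM, against 9.696 and 9.36 under the Esrrb label and 32.7 and 30.8 under the Esrrb+Hh-CM label. Cyclin A2, Ccna2, which acts from S phase into early mitosis, measured 13.1 and 13.2 FPKM in Control, 26 and 26.4 in Hh-CM, 17.1 and 16.9 in the libraries labelled Esrrb and 52.8 and 48.9 in those labelled Esrrb+Hh-CM. In these 3 the order of the 4 groups held in every library, and the step with Hh-CM was larger under the Esrrb vector label in each. Their log2 fold changes with Hh-CM were 0.52 ± 0.05 (SE), 0.89 ± 0.08 (SE) and 0.99 ± 0.05 (SE) in the empty-vector cells, and 1.07 ± 0.05 (SE), 1.73 ± 0.08 (SE) and 1.57 ± 0.05 (SE) under the vector label. Ccna2 shares 14.6% of its exon bases with Exosc9 on the opposite strand.

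Cks2, a small adaptor of the mitotic kinase, was the most abundant of this role, at 23.7 and 22.1 FPKM in Control, 36.2 and 28.5 in Hh-CM, 21.5 and 25.2 in the libraries labelled Esrrb and 57.4 and 53.2 in those labelled Esrrb+Hh-CM. Its higher level with Hh-CM alone did not pass the test (log2 fold change 0.49 ± 0.13 (SE), limma adjusted p = 0.0565), and the libraries labelled Esrrb overlapped Control. Cdc25b, a phosphatase that starts Cdk1 activation, measured 7.07 and 6.27 FPKM in Control and 10.2 and 11.7 in Hh-CM, against 6.06 and 5.97 under the Esrrb label and 16.1 and 14.03 under the Esrrb+Hh-CM label. It stood slightly lower under the Esrrb label than in Control, a difference that did not pass (log2 fold change -0.14 ± 0.10 (SE), limma adjusted p = 0.397). Cdc25c, a phosphatase with the same substrate, measured 1.17 and 1.07 FPKM in Control, 3.86 and 3.54 in Hh-CM, 2.53 and 1.86 in the libraries labelled Esrrb and 6.03 and 5.67 in those labelled Esrrb+Hh-CM. Cdc25c had the largest change of any tested member with Hh-CM in the empty-vector cells (1.64 ± 0.16 (SE)) and also the largest under the Esrrb label with vehicle (0.90 ± 0.16 (SE)), at levels near 1 FPKM in Control.

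Foxm1, the forkhead transcription factor of G2 and M phase genes, measured 4.85 and 4.84 FPKM in Control and 10.3 and 10.3 in Hh-CM, against 5.92 and 6.56 under the Esrrb label and 19.2 and 19.1 under the Esrrb+Hh-CM label. Cdca3, which promotes the destruction of the Cdk1 inhibitor Wee1, measured 6.12 and 5.51 FPKM in Control, 16.3 and 14.1 in Hh-CM, 7.13 and 9.45 in the libraries labelled Esrrb and 29.2 and 27.1 in those labelled Esrrb+Hh-CM. Both passed both thresholds with Hh-CM alone. In this role 7 of 8 members rose with Hh-CM alone and all 8 with the vector label and Hh-CM together, where the log2 fold changes over Control ran from 1.16 in Cdc25b to 2.29 in Cdc25c. Ccnb2, in the 7 libraries where its own locus (chr9:70255496-70269361, mm9) was reported, measured 2.96 and 2.35 FPKM in Control, 5.33 and 5.79 in Hh-CM, 3.01 and 2.35 under the Esrrb label and 10.49 in the first library labelled Esrrb+Hh-CM. In the second of these the locus ran on to 70351532 and read 18.2 FPKM, a value that covers more than the gene.

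The 4 mitotic kinases all rose with Hh-CM. Plk1, polo-like kinase 1 (chr7:129302951-129313389, plus strand), which acts from centrosome maturation to cytokinesis, measured 3.59 and 3.75 FPKM in Control, 7.17 and 7.93 in Hh-CM, 4.73 and 4.72 in the libraries labelled Esrrb and 16.4 and 16.6 in those labelled Esrrb+Hh-CM. Aurka, the kinase of the spindle poles, measured 4.52 and 4.52 FPKM in Control and 8.41 and 7.74 in Hh-CM, against 5.85 and 5.304 under the Esrrb label and 17.4 and 15.5 under the Esrrb+Hh-CM label. In both, no 2 groups overlapped. Nek2, which separates centrosomes, measured 2.58 and 2.399 FPKM in Control, 5.55 and 5.32 in Hh-CM, 3.26 and 3.55 in the libraries labelled Esrrb and 11.1 and 8.49 in those labelled Esrrb+Hh-CM. Melk, a kinase of dividing cells, measured 2.94 and 2.38 FPKM in Control and 4.48 and 5.04 in Hh-CM, against 2.65 and 2.58 under the Esrrb label and 10.1 and 8.38 under the Esrrb+Hh-CM label. On the log2 scale, Nek2 and Melk differed most of the 4 between the 2 libraries labelled Esrrb+Hh-CM. Melk stood at the Control level under the Esrrb label with vehicle (log2 fold change -0.01 ± 0.14 (SE), limma adjusted p = 0.964), and Plk1 was the only kinase of the 4 that passed there (0.36 ± 0.07 (SE), limma adjusted p = 0.0239). Over Control, the libraries labelled Esrrb+Hh-CM stood between 1.76 and 2.14 higher on the log2 scale.

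Top2a, the topoisomerase that untangles sister chromatids (chr11:98854257-98885503, minus strand), had the highest level of all members in both groups given Hh-CM and the largest change from Control to Esrrb+Hh-CM. It measured 13.96 and 14.2 FPKM in Control, 43.2 and 41.2 in Hh-CM, 20.8 and 20.7 in the libraries labelled Esrrb and 97.1 and 92.8 in those labelled Esrrb+Hh-CM. No 2 groups overlapped, and the widest gap between 2 replicates was that of the libraries labelled Esrrb+Hh-CM. Its log2 fold changes were 0.56 ± 0.04 (SE) from Control to the libraries labelled Esrrb, 1.58 ± 0.04 (SE) from Control to Hh-CM and 2.75 ± 0.04 (SE) from Control to those labelled Esrrb+Hh-CM (limma adjusted p = 0.00143, 3.01e-05 and 2.17e-06). Mki67, the Ki-67 protein that coats mitotic chromosomes and is the common marker of dividing cells, measured 2.66 and 2.11 FPKM in Control and 6.83 and 6.23 in Hh-CM, against 3.62 and 2.95 under the Esrrb label and 13.3 and 13.7 under the Esrrb+Hh-CM label. It came second in the change to Esrrb+Hh-CM (2.46 ± 0.14 (SE), limma adjusted p = 0.000142), while its higher values under the Esrrb label with vehicle did not pass (0.45 ± 0.14 (SE), limma adjusted p = 0.0896).

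Condensin was represented by 4 subunits. Smc2, a core ATPase, measured 4.896 and 4.94 FPKM in Control, 8.49 and 8.99 in Hh-CM, 6.45 and 5.47 in the libraries labelled Esrrb and 14.4 and 13.5 in those labelled Esrrb+Hh-CM. Smc4, its partner ATPase, measured 25.2 and 26.7 FPKM in Control and 35.1 and 32.7 in Hh-CM, against 27.8 and 28.2 under the Esrrb label and 44.4 and 45.4 under the Esrrb+Hh-CM label. The groups of both core subunits kept apart in every library. Ncapg and Ncapd2 belong to condensin I, and Ncapg measured 4.35 and 4.41 FPKM in Control, 8.03 and 9.31 in Hh-CM, 4.74 and 4.79 in the libraries labelled Esrrb and 14.7 and 14.8 in those labelled Esrrb+Hh-CM. Ncapd2 measured 6.303 and 5.96 FPKM in Control and 12.1 and 11.96 in Hh-CM, against 7.07 and 7.45 under the Esrrb label and 22.1 and 22.3 under the Esrrb+Hh-CM label. Smc4 had the highest Control level of all 58 members and the smallest change to Esrrb+Hh-CM (0.79 ± 0.05 (SE), limma adjusted p = 0.000206), although its groups did not overlap. The other 3 subunits lay between 1.49 and 1.84. Ncapg shares 13.3% of its exon bases with Lcorl on the opposite strand.

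Among the 7 kinetochore genes, Cenpa, the histone H3 variant that marks centromeres, was the most abundant, at 8.07 and 9.597 FPKM in Control, 19.1 and 18.6 in Hh-CM, 10.5 and 11.1 in the libraries labelled Esrrb and 49.7 and 30.2 in those labelled Esrrb+Hh-CM. Counted in FPKM, the 2 libraries labelled Esrrb+Hh-CM differed more in Cenpa than in any other member, and the change to Esrrb+Hh-CM of 2.12 ± 0.23 (SE) carries that spread. Cenpe, a kinetochore motor, measured 2.01 and 1.81 FPKM in Control and 4.71 and 4.69 in Hh-CM, against 2.72 and 2.47 under the Esrrb label and 7.896 and 8.66 under the Esrrb+Hh-CM label. Cenpf, a large protein of the outer kinetochore, measured 1.37 and 1.37 FPKM in Control, 3.98 and 3.67 in Hh-CM, 1.78 and 1.52 in the libraries labelled Esrrb and 7.16 and 7.22 in those labelled Esrrb+Hh-CM. With Hh-CM alone Cenpf rose by 1.41 ± 0.11 (SE) and Cenpe by 1.26 ± 0.10 (SE), both past both thresholds.

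The Ndc80 complex, which grips microtubule ends, was measured in full. Ndc80 read 4.99 and 5.17 FPKM in Control, 10.6 and 11.2 in Hh-CM, 6.46 and 5.53 in the libraries labelled Esrrb and 17.9 and 16.2 in those labelled Esrrb+Hh-CM. Nuf2 read 6.38 and 6.86 FPKM in Control and 18.4 and 13.4 in Hh-CM, against 8.62 and 9.03 under the Esrrb label and 25.9 and 22.3 under the Esrrb+Hh-CM label. Both had the groups in the order seen for Top2a, with no overlap. Spc24 read 2.7 and 2.16 FPKM in Control, 4.21 and 4.29 in Hh-CM, 2.56 and 1.95 in the libraries labelled Esrrb and 7.13 and 5.13 in those labelled Esrrb+Hh-CM. Spc25 read 7.25 and 8.97 FPKM in Control and 16.4 and 17.2 in Hh-CM, against 11.2 and 8.94 under the Esrrb label and 28.7 and 31.3 under the Esrrb+Hh-CM label. The subunits Ndc80, Nuf2 and Spc25 passed both thresholds with Hh-CM alone, at 1.09, 1.23 and 1.05. Spc24, the lowest of the 4, did not pass with Hh-CM alone (log2 fold change 0.79 ± 0.21 (SE), limma adjusted p = 0.0539) and its libraries labelled Esrrb overlapped Control. In this role 6 of 7 genes passed both thresholds with Hh-CM alone, the largest share of any role.

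The checkpoint kinase Bub1, which loads the checkpoint onto kinetochores, measured 2.77 and 2.88 FPKM in Control, 5.74 and 5.73 in Hh-CM, 3.73 and 3.36 in the libraries labelled Esrrb and 11.2 and 11.2 in those labelled Esrrb+Hh-CM. Bub1b (BubR1), a subunit of the complex that inhibits the APC/C, measured 4.78 and 5.804 FPKM in Control and 9.002 and 9.64 in Hh-CM, against 6.84 and 6.92 under the Esrrb label and 20.5 and 19.4 under the Esrrb+Hh-CM label. Ttk (Mps1), the kinase at the top of the checkpoint, measured 1.32 and 1.18 FPKM in Control, 3.54 and 3.27 in Hh-CM, 2.12 and 1.78 in the libraries labelled Esrrb and 6.66 and 6.197 in those labelled Esrrb+Hh-CM. Ttk changed most in this role, by 1.38 ± 0.12 (SE) with Hh-CM alone and 2.27 ± 0.12 (SE) to Esrrb+Hh-CM. Mad2l1 (Mad2), which binds Cdc20 while chromosomes are unattached, was the most abundant at 17.6 and 16.8 FPKM in Control and 27.3 and 24.8 in Hh-CM, against 17.4 and 19.7 under the Esrrb label and 40.5 and 36.6 under the Esrrb+Hh-CM label. Sgol1, the shugoshin that protects centromeric cohesion, measured 2.22 and 2.14 FPKM in Control, 4.08 and 3.89 in Hh-CM, 2.61 and 2.697 in the libraries labelled Esrrb and 6.71 and 7.29 in those labelled Esrrb+Hh-CM. All 5 rose with Hh-CM alone, and Mad2l1 changed least, by 0.60 ± 0.09 (SE).

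Among the anaphase genes, Cdc20, the activator of the APC/C, measured 10.7 and 12.2 FPKM in Control, 22.7 and 20.6 in Hh-CM, 13.3 and 13.99 in the libraries labelled Esrrb and 41.1 and 42.5 in those labelled Esrrb+Hh-CM. Ube2c (chr2:164595398-164604322, plus strand), the ubiquitin-conjugating enzyme of the APC/C, had the highest level of this role at 19.3 and 17.7 FPKM in Control and 35.2 and 34.8 in Hh-CM, against 24.2 and 23.03 under the Esrrb label and 69.01 and 77.6 under the Esrrb+Hh-CM label. It was second to Top2a among all members under the Esrrb+Hh-CM label, and 22.8% of its exon bases are shared with Tnnc2 on the opposite strand. Pttg1, securin, measured 9.18 and 12.4 FPKM in Control, 18.7 and 17.6 in Hh-CM, 17.2 and 13.9 in the libraries labelled Esrrb and 37.3 and 36.4 in those labelled Esrrb+Hh-CM. Espl1, separase, which securin holds inactive, measured 1.02 and 1.299 FPKM in Control and 1.98 and 2.74 in Hh-CM, against 1.58 and 1.48 under the Esrrb label and 4.67 and 4.86 under the Esrrb+Hh-CM label. None of these 4 reached a log2 fold change of 1 with Hh-CM alone (from 0.76 in Pttg1 to 0.96 in Espl1), and all 4 exceeded it in the libraries labelled Esrrb+Hh-CM (from 1.78 to 1.98).

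The chromosomal passenger complex corrects wrong attachments and then moves to the midzone. Its kinase Aurkb measured 5.83 and 7.76 FPKM in Control, 11.4 and 11.9 in Hh-CM, 7.48 and 7.397 in the libraries labelled Esrrb and 25.97 and 22.5 in those labelled Esrrb+Hh-CM. Birc5 (survivin), which brings the complex to centromeres, measured 12.7 and 13 FPKM in Control and 27.8 and 25.4 in Hh-CM, against 19.1 and 18.9 under the Esrrb label and 52.95 and 55.4 under the Esrrb+Hh-CM label. Aurkb overlapped between Control and the libraries labelled Esrrb, and Birc5 did not. Incenp, the scaffold, measured 7.19 and 8.46 FPKM in Control, 12.5 and 13.2 in Hh-CM, 8.71 and 9.23 in the libraries labelled Esrrb and 23.7 and 23.7 in those labelled Esrrb+Hh-CM. Cdca8 (borealin) measured 7.37 and 8.26 FPKM in Control and 16.2 and 15.4 in Hh-CM, against 8.09 and 8.26 under the Esrrb label and 30.5 and 25.1 under the Esrrb+Hh-CM label. Birc5 was the most abundant and the only subunit that rose under the Esrrb label with vehicle (0.56 ± 0.06 (SE), limma adjusted p = 0.00291). Cdca8 stood at nearly the Control level there (0.07 ± 0.11 (SE), limma adjusted p = 0.709), with an overlap of libraries. All 4 rose with Hh-CM alone, and Birc5 and Cdca8 passed both thresholds.

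The spindle kinesins formed a large role. Kif11 (Eg5), which pushes the poles apart, measured 4.41 and 4.92 FPKM in Control, 9.72 and 9.74 in Hh-CM, 6.79 and 5.71 in the libraries labelled Esrrb and 19.6 and 17.3 in those labelled Esrrb+Hh-CM. Kif15, which helps Kif11, measured 1.704 and 1.59 FPKM in Control and 4.74 and 3.69 in Hh-CM, against 3.85 and 2.44 under the Esrrb label and 6.18 and 6.57 under the Esrrb+Hh-CM label. Kif15 was 1 of 2 members whose change with Hh-CM was smaller under the vector label (1.03) than without it (1.29), and its libraries labelled Esrrb differed more on the log2 scale than those of any other member. Kif18a, which dampens chromosome movement, measured 1.93 and 2.204 FPKM in Control, 4.33 and 3.96 in Hh-CM, 2.59 and 2.19 in the libraries labelled Esrrb and 6.79 and 6.18 in those labelled Esrrb+Hh-CM. Kif22 (Kid), which pushes chromosome arms, measured 4.43 and 3.72 FPKM in Control and 6.71 and 6.67 in Hh-CM, against 5.28 and 4.97 under the Esrrb label and 15.5 and 13.4 under the Esrrb+Hh-CM label. Kif2c (MCAK, chr4:116832244-116855244, minus strand), a microtubule depolymerase, measured 4.97 and 4.78 FPKM in Control, 9.22 and 9.49 in Hh-CM, 6.34 and 5.48 in the libraries labelled Esrrb and 20.3 and 19.8 in those labelled Esrrb+Hh-CM. These rose with Hh-CM alone by between 0.71 in Kif22 and 1.29 in Kif15.

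Kif4, a chromokinesin encoded on the X chromosome (chrX:97821076-97922553, plus strand), measured 2.98 and 2.54 FPKM in Control, 4.07 and 3.92 in Hh-CM, 2.88 and 2.56 in the libraries labelled Esrrb and 7.94 and 7.97 in those labelled Esrrb+Hh-CM. Its libraries labelled Esrrb overlapped Control, and its change with Hh-CM was 0.52 ± 0.11 (SE) without the vector label and 1.51 ± 0.11 (SE) with it. Kif4 shares 15.1% of its exon bases with Pdzd11 on the opposite strand. Kifc1 (HSET), which focuses spindle poles, measured 3.82 and 3.48 FPKM in Control and 6.67 and 7.09 in Hh-CM, against 4.5 and 4.21 under the Esrrb label and 12.4 and 12.9 under the Esrrb+Hh-CM label. The other 5 are spindle proteins that are not motors. Tpx2, the activator of Aurka, measured 6.54 and 6.37 FPKM in Control, 12.2 and 13.1 in Hh-CM, 7.99 and 7.93 in the libraries labelled Esrrb and 25.4 and 23.3 in those labelled Esrrb+Hh-CM. Nusap1, which binds spindle microtubules, measured 4.96 and 4.93 FPKM in Control and 11.6 and 12.1 in Hh-CM, against 5.34 and 6.81 under the Esrrb label and 25.7 and 20.7 under the Esrrb+Hh-CM label, and its reported locus differed in length by up to 15815 bases between libraries. Both had no overlap between groups. Hmmr, a hyaluronan receptor that also binds spindle microtubules, measured 3.38 and 3.74 FPKM in Control, 8.56 and 8.27 in Hh-CM, 5.02 and 4.04 in the libraries labelled Esrrb and 14.2 and 13.8 in those labelled Esrrb+Hh-CM. Dlgap5 (HURP), which stabilizes fibres at kinetochores, measured 2.104 and 2.101 FPKM in Control and 4.24 and 4.22 in Hh-CM, against 2.896 and 2.56 under the Esrrb label and 8.62 and 8.29 under the Esrrb+Hh-CM label. Ckap2, a cytoskeleton-associated protein of the spindle, measured 6.77 and 8.06 FPKM in Control, 12.4 and 12.4 in Hh-CM, 8.35 and 7.79 in the libraries labelled Esrrb and 20.02 and 19.8 in those labelled Esrrb+Hh-CM. Nusap1 changed most to Esrrb+Hh-CM in this role (2.20 ± 0.14 (SE)) and Ckap2 least (1.42 ± 0.09 (SE)).

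In the midzone, Prc1, which bundles antiparallel microtubules, measured 10.6 and 10.97 FPKM in Control, 20.1 and 23.4 in Hh-CM, 13.9 and 14.03 in the libraries labelled Esrrb and 40.4 and 39.8 in those labelled Esrrb+Hh-CM. Kif23 (MKLP1), the motor of centralspindlin, measured 4.203 and 3.87 FPKM in Control and 7.46 and 7.302 in Hh-CM, against 4.54 and 4.99 under the Esrrb label and 14.2 and 13.2 under the Esrrb+Hh-CM label. Racgap1 (chr15:99450927-99482087, minus strand), its partner and the most abundant gene of this role, measured 15.6 and 16.7 FPKM in Control, 28.1 and 26.2 in Hh-CM, 16.7 and 17.02 in the libraries labelled Esrrb and 46.02 and 47.9 in those labelled Esrrb+Hh-CM. Racgap1 stood close to Control under the Esrrb label, with a difference that did not pass (0.06 ± 0.06 (SE), limma adjusted p = 0.504). Kif20a (MKLP2), which carries the passenger complex to the midzone, measured 9.56 and 8.46 FPKM in Control and 13.9 and 15.6 in Hh-CM, against 10.1 and 10.7 under the Esrrb label and 26.2 and 25.1 under the Esrrb+Hh-CM label, with 32.3% of its exon bases shared with Cdc23 on the opposite strand. Kif20b measured 2.51 and 2.55 FPKM in Control, 4.99 and 5.16 in Hh-CM, 3.42 and 3.67 in the libraries labelled Esrrb and 8.56 and 10.2 in those labelled Esrrb+Hh-CM. Of these, Prc1 alone passed both thresholds with Hh-CM alone (1.00 ± 0.08 (SE)).

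For cytokinesis itself, Ect2, the exchange factor that activates RhoA at the equator, measured 3.52 and 3.83 FPKM in Control, 7.44 and 7.25 in Hh-CM, 4.92 and 4.55 in the libraries labelled Esrrb and 12.5 and 12.1 in those labelled Esrrb+Hh-CM. Anln (anillin), a scaffold of the contractile ring, measured 6.14 and 6.04 FPKM in Control and 9.84 and 11.1 in Hh-CM, against 7.79 and 7.65 under the Esrrb label and 17.5 and 16.9 under the Esrrb+Hh-CM label. Cit measured 0.765 and 0.4202 FPKM in Control, 0.664 and 0.7395 in Hh-CM, 0.451 and 0.538 in the libraries labelled Esrrb and 1.68 and 2.98 in those labelled Esrrb+Hh-CM. Cit was the lowest member and had the widest error. The difference with Hh-CM alone did not pass (log2 fold change 0.26 ± 0.37 (SE), limma adjusted p = 0.693). Its higher values under the Esrrb+Hh-CM label are what brought it into the test, so they are given as values only. Ect2 and Anln rose in all 5 comparisons.

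**Figure D4:**
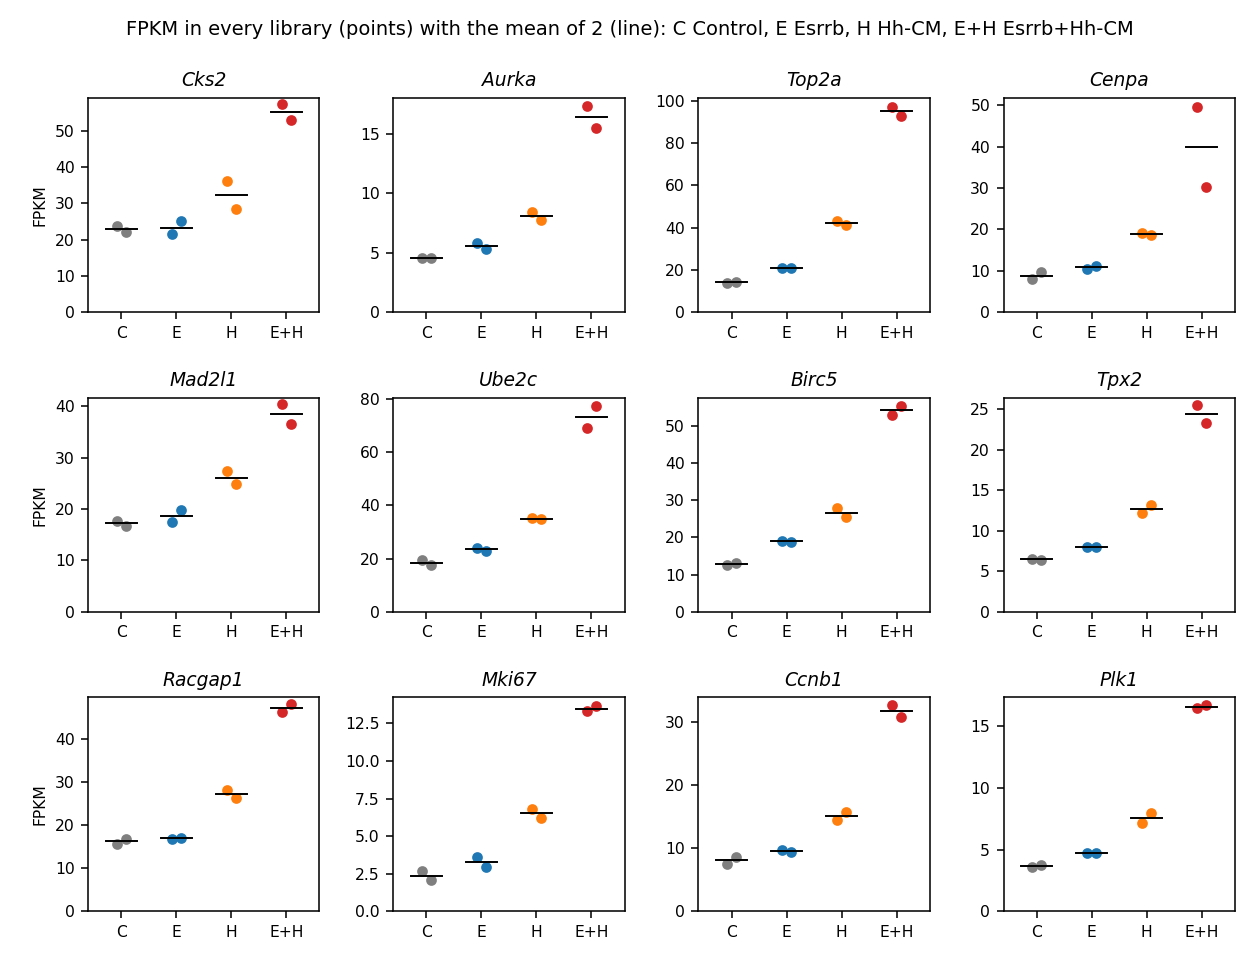
FPKM (y axis, linear from 0) of 12 members, with a point for each of the 2 libraries and a line at their mean, in Control (C), libraries labelled Esrrb (E), Hh-CM (H) and libraries labelled Esrrb+Hh-CM (E+H). The genes are the most abundant tested member of each role with Mki67, Ccnb1 and Plk1. In all 12 the points of E+H lie above the other 6, the replicates of Cenpa spread most, and the E points of Cks2, Mad2l1 and Racgap1 lie near those of C.

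Whether the vector label changed the response to Hh-CM was tested as the interaction, the log2 fold change with Hh-CM in the libraries labelled with the Esrrb vector minus that in the empty-vector cells. It was positive in 56 of 58 members, with a median of 0.60, against a median of 0.00 over all tested genes. Cdc25c (-0.25) and Kif15 (-0.26) were the exceptions. The largest, 1.73, was that of Cit, which entered the test through the libraries labelled Esrrb+Hh-CM. With an FPKM of 1 required in every library, which leaves out Cit, the median interaction was 0.59. The adjusted p was below 0.05 in 11 members, all with the larger response under the vector label, against 0.758% of all tested genes in that direction and 0.593% in the other. By role these were Ccnb1, Cdk1 and Ccna2 of mitotic entry, Plk1 of the kinases, Top2a and Ncapd2 of chromosome structure, Ube2c of anaphase, Kif4, Kif2c and Tpx2 of the spindle, and Racgap1 of the midzone. Unadjusted p was below 0.05 in 48 members, all positive, against 9.68% of all tested genes in that direction. The kinetochore, checkpoint and passenger roles held 0 members with an adjusted p below 0.05 by limma and 4 each with an unadjusted p below it.

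The 11 interactions ran from 0.55 ± 0.07 (SE) in Cdk1 (limma adjusted p = 0.0259) to 0.99 ± 0.15 (SE) in Kif4 (limma adjusted p = 0.04797). The smallest adjusted p was that of Top2a (0.61 ± 0.06 (SE), limma adjusted p = 0.0151). In Plk1, Hh-CM raised the level 2.03-fold in the empty-vector cells and 3.45-fold under the vector label. In Top2a the corresponding folds were 2.99 and 4.56, and in Racgap1 1.68 and 2.77. These calls depended on all 8 libraries: 2 members passed without the first Control library, 0 without the second, 1 and 0 without the first and second library labelled Esrrb, 3 and 6 without the first and second labelled Esrrb+Hh-CM, and 2 without either Hh-CM library. The median interaction stayed between 0.56 and 0.62 in these refits.

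**Figure D5:**
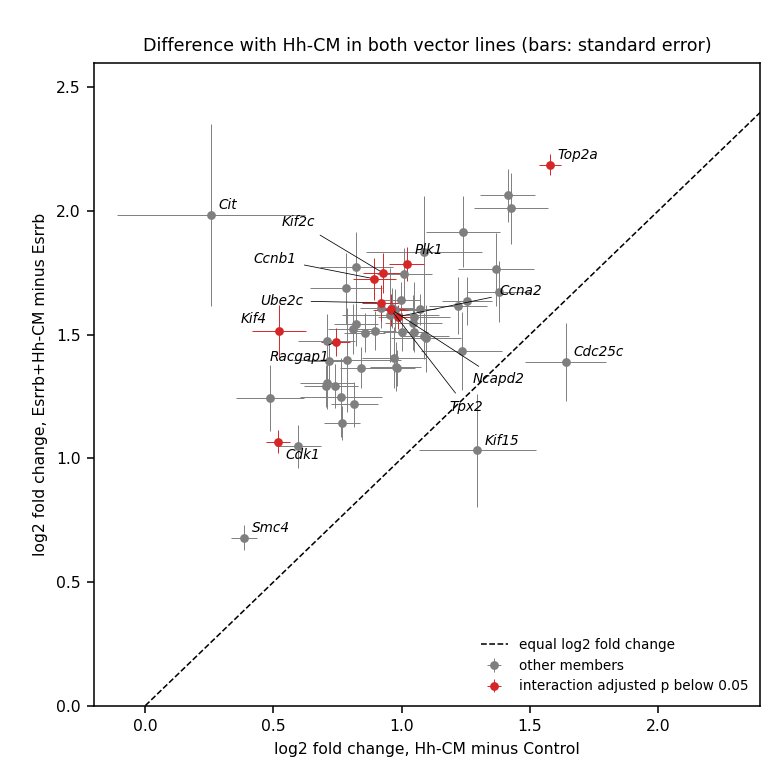
Log2 fold change with Hh-CM in the empty-vector cells (x axis) against that in the libraries labelled with the Esrrb vector (y axis) for the 58 tested members, with bars of 1 standard error and a dashed line where both are equal. Points lie above the line in 56 of 58 members, and the 11 with an interaction adjusted p below 0.05 are red.

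The 2 changes with Hh-CM share no library. Across the 58 members, which share libraries and so are not independent points, Spearman's rho between the 2 changes was 0.484 and Pearson's r 0.487. The SD of the difference between the 2 libraries of a group was between 0.147 and 0.196 on the log2 scale over the members. Over all tested genes it was between 0.563 and 0.689. These sets were not matched on level: 57 of the 58 members reached an FPKM of 1 in every library, which a tested gene had to reach in only 2. The gap therefore cannot be read as a trait of the members.

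Other genes of the same processes were read from lists taken from general knowledge. Of 74 other tested mitotic genes, 42 rose with Hh-CM alone, 14 under the Esrrb label with vehicle and 56 from Control to Esrrb+Hh-CM. Of all tested genes 10.5%, 10.2% and 23.0% did. In each of these 0 fell past the adjusted p by limma, against 7.53%, 6.16% and 12.0% of all tested genes. In the last, 1 fell at an unadjusted p below 0.05. The median log2 fold changes were 0.68, 0.17 and 1.29. Aspm, a spindle pole protein, measured 1.09 and 1.01 FPKM in Control, 2.54 and 2.42 in Hh-CM, 1.21 and 1.29 under the Esrrb label and 4.81 and 4.89 under the Esrrb+Hh-CM label. Ska1, of the kinetochore Ska complex, had the largest change past both thresholds to Esrrb+Hh-CM in this list, at 2.89. Spag5 (astrin) was the 1 gene of the list with an interaction past the adjusted p (0.82), against 0.758% of all tested genes in that direction.

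Genes of DNA replication, which precede mitosis in the cycle, had smaller median changes. Of 39 tested, 25 rose with Hh-CM alone and 35 from Control to Esrrb+Hh-CM, against 10.5% and 23.0% of all tested genes. Under the Esrrb label with vehicle 5 rose (12.8%), a share near the 10.2% of all tested genes. The medians in these comparisons were 0.43, 1.13 and 0.18. In the same order 3, 27 and 0 genes passed both thresholds by limma, against 1.96%, 4.6% and 0.836% of all tested genes. In the last, 16 were upward at an unadjusted p below 0.05, against 20.8% of all tested genes. Pcna, the sliding clamp, measured 85.3 and 91.8 FPKM in Control, 104.7 and 105.6 in Hh-CM, 88.1 and 83.3 under the Esrrb label and 153 and 140 under the Esrrb+Hh-CM label. Tk1, thymidine kinase, rose by 2.07 on the log2 scale to Esrrb+Hh-CM. No replication gene passed the adjusted p of the interaction by limma, against 0.758% of all tested genes upward. At an unadjusted p below 0.05, 27 were upward, against 9.68% of all tested genes. Whether these medians differ from those of the mitotic genes was not tested.

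Among 18 tested regulators of cell-cycle gene transcription, 10 rose from Control to Esrrb+Hh-CM and 5 passed both thresholds, against 23.0% and 4.6% of all tested genes, namely the repressors E2f7 (2.10) and E2f8 (1.95), the MuvB subunits Lin9 (1.13) and Lin54 (1.05), and the pocket protein Rbl1 (1.03). E2f7 measured 0.675 and 0.727 FPKM in Control, 1.38 and 1.62 in Hh-CM, 1.09 and 1.27 under the Esrrb label and 3.44 and 3.21 under the Esrrb+Hh-CM label. No regulator fell past the adjusted p in that comparison by limma, against 12.0% of all tested genes, and 0 did at an unadjusted p below 0.05. With Hh-CM alone 5 of the 18 rose, and E2f8 passed both thresholds (1.04), against 10.5% and 1.96% of all tested genes. None fell past the adjusted p by limma, against 7.53% of all tested genes, and 1 had an unadjusted p below 0.05 downward.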

How the data were processed

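Poly(A) RNA of 8 cultures was made into libraries with the TruSeq Stranded mRNA kit and sequenced on an Illumina HiSeq instrument. The authors trimmed the reads with the FASTX-Toolkit, aligned them with TopHat2 and Bowtie2 to mm9, and assembled and quantified each library separately with Cufflinks, and they deposited 1 table of loci per library with FPKM (mapped fragments normalized to transcript length and library size) and its confidence limits. Versions, and whether reads were assigned by strand, are not given in the sources used here. The cells under each label came from 2 biological replicates per the study's methods. The study gives only an approximate number of reads per sample and the tables hold no counts, so the exact depth of each library is unknown. Each library was quantified on its own.

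Deposited loci were matched to GENCODE genes on mm9 (NCBIM37) by the best Jaccard index, at least 0.5. Genes with FPKM of 1 or more in at least 2 libraries were kept (10284), values were log2-transformed after adding 0.1, and all 8 libraries were fitted by group with limma 3.58.1 (trend on mean level) in R 4.3.3. Loci were matched and tables made in Python 3.11.15 (pandas 2.3.3, numpy 2.4.6), and plots in matplotlib 3.10.9. The thresholds were an adjusted p of 0.05 and, for the 5 comparisons of groups, a log2 fold change of 1 in either direction. The fit was tested on simulated data. The members and the other gene lists were chosen with earlier results of these data known. Values are given for every member that passed both thresholds in any comparison, and for the rest of the list beside them. Genes of the other lists were named where they led their list or passed a threshold, after their values were seen. Of 59 members, 12 share exon bases with another annotated gene, 10 of them on the opposite strand, and values of shared bases cannot be assigned to 1 gene. For 40 of 58 members the locus was identical in all libraries. The distance between the confidence limits deposited for members, divided by 2, was 3.2% to 132% of the value. The widest limits were those of Cdc25c in 1 library, followed by Kif18a (126%) and Cdca8 (99.3%). The first library labelled Esrrb repeats 4339 locus identifiers, against 136 to 147 in the others. Promoters are RefSeq's on GRCm38.p6 and were searched by letters only. Cuffdiff was not run here, since it needs aligned reads.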

Additional observations from a re-analysis of the deposited data

Results flagged for a closer look

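For 11 members the response to Hh-CM differed between the empty-vector cells and the libraries labelled with the Esrrb vector, by the interaction in limma. Over all tested genes, 0.758% passed this test with the larger response under the vector label. The difference in log2 fold change, in favour of the vector label in each, was 0.99 in Kif4, 0.83 in Ccnb1, 0.82 in Kif2c, 0.77 in Plk1, 0.73 in Racgap1, 0.71 in Ube2c, 0.64 in Ncapd2, 0.64 in Tpx2, 0.61 in Top2a, 0.59 in Ccna2 and 0.55 in Cdk1. The limma adjusted p-values ran from 0.0151 in Top2a to 0.04797 in Kif4. Both libraries labelled Esrrb+Hh-CM stood above the other 6 in all 11. They also did so in all 58 tested members and in 18.9% of all tested genes, so this does not mark the 11. The count of 11 was not stable. It was 1 with the replicate block, 6 with no filter on low FPKM and 6 without the variance trend. With a pseudocount of 1, and with rescaled FPKM, it was 13. Esrrb mRNA was listed at 0 FPKM in the libraries of the vector label, and what else set the 2 cell lines apart was not tested.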

How the results depend on the processing

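No median log2 fold change of the members changed sign under any alternative tried, but several counts shifted. With a pseudocount of 1, 9 members passed both thresholds from Control to Hh-CM in place of 21, and 8 in place of 15 from Hh-CM to the libraries labelled Esrrb+Hh-CM, where rescaled FPKM gave 9. From Control to the libraries labelled Esrrb, 8 members in place of 18 rose with no filter on low FPKM, and 5 when the compared groups alone were fitted. The interaction passed in 6 members in place of 11 with no filter and in 6 without the variance trend. Same-numbered libraries did not deviate together over all tested genes (correlations of -0.06 to 0.06, mean 0.0055). A shared transfection or batch that affects few genes would not show in these correlations, so whether same-numbered libraries are paired is unknown. With the replicate block, 10 members rose under the Esrrb label and 1 passed the interaction. Leaving out 1 library at a time, which leaves an arm with 1 library assumed to vary like the other groups, gave 14 to 24 members past both thresholds from Control to Hh-CM, 0 to 2 from Control to Esrrb, 56 to 57 from Control to Esrrb+Hh-CM, 8 to 18 from Hh-CM to Esrrb+Hh-CM and 54 to 57 from Esrrb to Esrrb+Hh-CM. The same refits gave 49 to 56, 3 to 15, 57 to 58, 43 to 54 and 56 to 58 past the adjusted p in those comparisons, and 0 to 6 for the interaction. The cause of these shifts was not tested. With 2 libraries a group and no counts, differences in members near 1 FPKM, such as Cit, are measured least well.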

Other observations

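Genes tied to growth arrest and the inhibitors of cyclin-dependent kinases did not move as a group. Of 13 tested, 3 rose and 3 fell with Hh-CM alone by the adjusted p of limma, against 10.5% and 7.53% of all tested genes. From Control to the libraries labelled Esrrb 3 rose and 3 fell, against 10.2% and 6.16% of all tested genes. From Control to those labelled Esrrb+Hh-CM 4 rose and 4 fell, against 23.0% and 12.0%. In each case the share of the 13 was larger than that of all tested genes, a difference that was not tested. Gas1, a surface protein named for its expression in arrested fibroblasts and also a co-receptor for Hh ligand, measured 281 and 273 FPKM in Control, 128 and 128 in Hh-CM, 276 and 276 in the libraries labelled Esrrb and 96.1 and 87.0 in those labelled Esrrb+Hh-CM. Hh-CM alone changed it by a log2 fold change of -1.11, and its interaction was -0.48 (limma adjusted p = 0.0480), opposite in sign to those of the 11 mitotic genes. Gas6, a growth factor also induced at arrest, rose by 1.096 with Hh-CM alone and by 1.49 to Esrrb+Hh-CM, and Cdkn2d, an inhibitor of the G1 kinases, rose by 1.06 to Esrrb+Hh-CM. Cdkn1b, which encodes the inhibitor p27, was lower by 0.46 on the log2 scale in the libraries labelled Esrrb than in Control. In that comparison 3 genes of the list rose and 3 fell, 0 passed both thresholds by limma, and the lowest log2 fold change was -0.52.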
